A study of Caenorhabditis elegans with 32 samples.

Results

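The homeobox transcription factor genes of C. elegans described here are 85 protein-coding genes of the 46726 genes counted in this series, of which 20447 are protein-coding. They comprise 65 genes whose name is ceh- followed by a number, and 20 genes that carry a name of their own, such as lin-39, ttx-3 or unc-3. They were chosen by name without a cutoff on any measured value, although earlier results of these data were known. The symbols and WBGene identifiers are those of the count table, and all 85 identifiers were also found in the Ensembl annotation of genome build WBcel235.

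Homeobox genes encode transcription factors that bind DNA through a homeodomain. In the worm nervous system, combinations of them act as terminal selectors, which means that they switch on and maintain the set of genes that gives a neuron class its identity, and the Hox genes among them set position along the body and steer migrating neuroblasts. Several members have known roles outside neurons, for example in the gonad sheath, intestine or epidermis. For unc-3 the name of the set does not hold, because UNC-3 is a COE-type (Collier/Olf/EBF) factor without a homeodomain, and it was kept because the rule names it. The ceh-44 locus also encodes a CASP-type protein without a homeodomain, and counts per gene do not separate the 2 products.

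RNA was sequenced from sorted O2-sensing neurons and from whole worms at day 7 or day 1 of adulthood, after culture at 21% or 7% O2, which gave 8 groups of 4 biological replicates and 32 libraries. All animals were hermaphrodites of strain KL123, which carries the allele ad609 of npr-1 on X and the transgene iaIs25, made of Pgcy-37::GFP and unc-119(+). Loss of npr-1 restores avoidance of high O2, and the gcy-37 promoter drives GFP. That promoter labels the O2-sensing neurons URX, AQR and PQR strongly and the touch neuron AVM and the chemosensory neuron ASI weakly, so the sorted cells are a mixture. The whole-worm sample was an aliquot of the same dissociated cell suspension taken before the sort. All 8 groups ate bacteria for mex-3 RNAi from the L3 larval stage, which blocks embryonic development. Day 1 animals stayed on them until collection, whereas day 7 animals returned to OP50 bacteria at day 4, so that age, length of RNAi and food cannot be told apart in the comparison of ages. All libraries are bulk samples, in which fewer cells of a type and less RNA per cell cannot be told apart.

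Library totals ran between 8470929 and 30666288 counts in neurons and between 5365596 and 14778342 counts in whole worms, and 1 gene, F31C3.14, took 5.33% to 42.9% of the counts in neuron libraries and 28.4% to 53.8% in whole-worm libraries. The driver of the label, gcy-37, measured 204 to 531 CPM in day 7 neurons, 896 to 2224 CPM in day 1 neurons and 1.89 to 16.3 CPM in whole worms, where CPM is the count scaled to a common library size, with scaling factors from the trimmed mean of M-values (TMM). All 12 general neuronal markers were higher in neurons than in whole worms in each of the 4 comparisons, and their summed level was 2124 to 6306 CPM in day 7 neurons, 19999 to 40842 CPM in day 1 neurons and 318 to 695 CPM in whole worms. The 8 touch neuron markers and 3 or 4 of the 4 ASI markers were also higher in neurons in every comparison. Summed, the touch neuron markers had medians of 13444 and 15708 CPM in day 1 neurons at 21% and 7% O2. The 8 O2-sensing neuron markers had medians of 7519 and 6311 CPM there. At day 7 the medians were 1568 and 764 CPM for touch neuron markers and 719 and 450 CPM for O2-sensing neuron markers. The share of each cell type among the sorted cells was not tested. The library spread was wide, with a biological coefficient of variation of 1.02 over the neuron libraries and 0.418 over the whole-worm libraries.

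Of the 85 members, 3 had no count in any library, namely ceh-28, ceh-76 and ceh-85. Another 25 had counts but too few to be tested in any comparison of 2 groups, and 57 were tested in at least 1 of the 12 such comparisons. The test was edgeR's quasi-likelihood test, and a gene was called when its Benjamini-Hochberg adjusted p was under 0.1 and its fold change at least 1.5. Of the 57 members tested, 40 were called at least once and 17 never. The tested members are those that passed a minimum count, and a member can pass through the group in which it is high, so counts over tested members do not speak for all 85. Exons of 22 members overlap another gene, on the same strand for 4 of them, and because the counting ignored strand, their reads cannot be told apart from those of the partner. Of the members named below this concerns ceh-88, 32.5% of whose exonic length lies in C49C3.6 on the same strand, and others with a partner on the opposite strand, by the shared part of their exonic length ceh-22 (23.4%, F29F11.19), ceh-20 (10.5%, F31E3.8), ceh-32 (6.8%, W05E10.16), ceh-16 (6.2%, polk-1), ttx-3 (5.6%, lact-7), ceh-60 (5.4%, ets-4), ceh-40 (5%, xtr-2), lim-6 (1.1%, pfn-3) and ceh-38 (0.9%, tra-2). Members lay on all 6 chromosomes, with 25 on X, 16 on II, 15 on III, 14 on V, 10 on I and 5 on IV.

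Summed over all 85 members, the level was 329 to 671 CPM in day 7 neurons and 1489.7 to 2191 CPM in day 1 neurons, against 432 to 543 CPM in day 7 whole worms and 461 to 599.6 CPM in day 1 whole worms. The day 1 neuron libraries thus all lay above every other library, and day 7 neurons overlapped whole worms. Per kilobase of exon, lin-39 and ceh-20 had the highest median levels among members in day 1 neurons, at 176 and 167 CPM per kb at 21% O2 and at 194 and 145 CPM per kb at 7% O2. In day 7 neurons ceh-20 came first, at 71.2 CPM per kb at 21% O2 and 68.1 CPM per kb at 7% O2. In whole worms the broadly expressed CUT gene ceh-38 came first in 3 of the 4 groups, and ceh-20 in day 1 worms at 21% O2. The 4 genes lin-39, ceh-20, ceh-44 and ceh-18 together made up a median of 38.3% and 38.2% of the summed member level in day 7 neurons at 21% and 7% O2, and 54.7% and 56.4% in day 1 neurons.

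**Figure D1:**
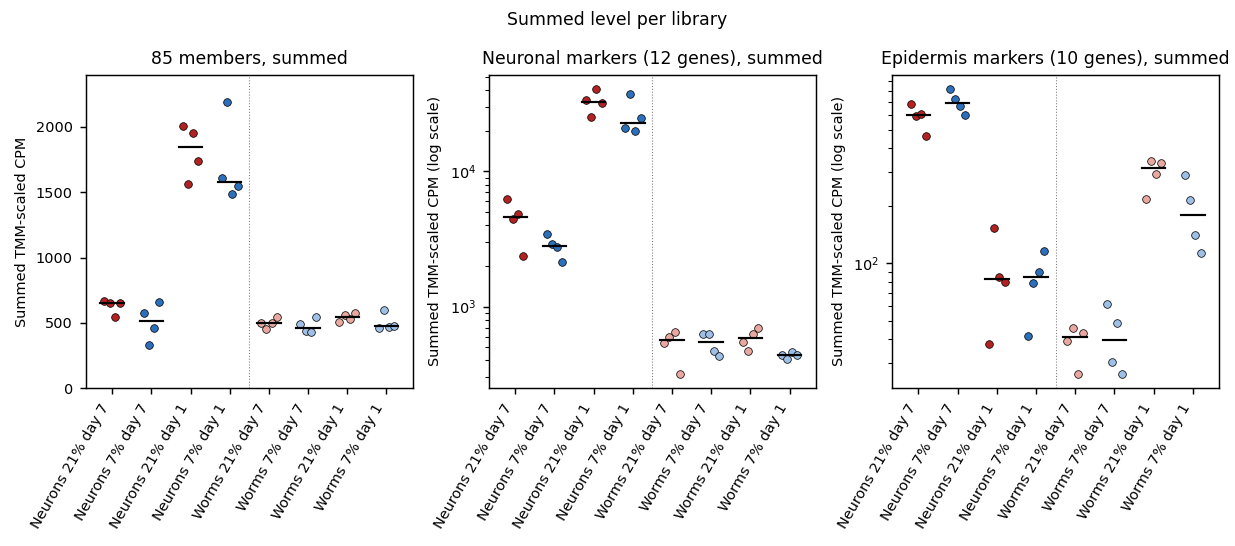
Summed TMM-scaled CPM in each of the 32 libraries (points; bars are medians of 4 libraries) for the 85 members on a linear axis from 0, and for 12 neuronal and 10 epidermal marker genes on log axes. Day 1 neurons stand apart for members (1489.7 to 2191 CPM) and neuronal markers, whereas epidermal markers are highest in day 7 neurons (464 to 820.5 CPM).

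The first question was which homeobox genes were more abundant in sorted neurons than in whole worms. In day 1 animals at 21% O2, 20 of 51 members tested were higher in neurons and 5 were lower, beside 30% of all genes tested called higher and 22.8% called lower. At 7% O2, 15 of 45 were higher and 3 lower, beside 26.8% and 19.5% of all genes. In day 7 animals 7 of 33 were higher and 4 lower at 21% O2 (all genes, 23.5% and 16.8%), and 7 of 40 were higher and 5 lower at 7% O2 (24.7% and 21.1%). The median log2 fold change of the tested members was 0.95 and 0.79 at day 1 (21% and 7% O2) and 0.69 and -0.13 at day 7, beside 0.02, -0.07, 0.09 and 0.04 over all genes tested; scaling by relative log expression (RLE) in place of TMM moved the all-gene median by -0.14 in day 1 animals at 21% O2 and by less than 0.1 in the other 3. Leaving out whole-worm replicate 3 lowered the count of called members in day 7 animals at 21% O2 to 7, and leaving out neuron replicate 4 raised it to 17, from 11 with all libraries.

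Of 53 members tested in at least 1 of the 4 comparisons, 24 were higher in neurons at least once (42.1% of all genes so tested), 11 were lower at least once (35.2%) and 1, ceh-38, was both. Of the 31 members tested in all 4, 5 were higher in all 4 (9.57% of all genes so tested), namely lin-39, ceh-20, unc-3, ceh-48 and ceh-57, and ceh-18 and vab-3 were higher in 3. No member was lower in all 4.

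The Hox gene lin-39 (chromosome III, 7528641 to 7536632, minus strand) acts in the mid-body and controls the migration of the QR neuroblast lineage, from which AQR and AVM descend. It measured 415, 217, 270.4 and 173 CPM in day 1 neurons at 21% O2, against 7.29, 14.1, 9.76 and 18 CPM in whole worms (log2 fold change 4.59 ± 0.38, adjusted p = 2.43e-06; ± is the standard error throughout). At 7% O2 it measured 315, 423, 199 and 222 CPM in day 1 neurons, against 6.86, 20.6, 4.57 and 2.48 CPM in whole worms (5.14 ± 0.66, adjusted p = 0.000171). Every day 1 neuron library thus exceeded every whole-worm library of its O2 level by a wide margin. At day 7 the groups still did not overlap, with 18.8 to 54.4 CPM in neurons and 0.604 to 6.43 CPM in whole worms, and the log2 fold changes were 4.42 ± 0.61, adjusted p = 0.000369 at 21% O2 and 3.47 ± 0.68, adjusted p = 0.00194 at 7% O2.

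CEH-20 is the worm Extradenticle/PBX homologue and binds DNA together with Hox proteins. Its gene (chromosome III, 6979884 to 6981785, plus strand) measured 329, 194, 227 and 199.9 CPM in day 1 neurons at 21% O2, against 19.2, 63.3, 50.2 and 62.8 CPM in whole worms (2.43 ± 0.36, adjusted p = 0.000236). In day 7 animals it measured 139.6, 77.5, 101 and 81 CPM in neurons at 21% O2, against 26.3, 27.2, 26.1 and 16.3 CPM in whole worms (2.08 ± 0.32, adjusted p = 0.000739). Unlike lin-39, ceh-20 was well counted in whole worms too, and no pair of groups overlapped. At 7% O2 the log2 fold changes were 2.72 ± 0.51, adjusted p = 0.00191 at day 1 and 2.10 ± 0.33, adjusted p = 0.000451 at day 7.

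The COE-type gene unc-3 (chromosome X, 14773538 to 14783568, plus strand), known from ASI and from cholinergic motor neurons, was near the limit of counting in whole worms. It measured 88.8, 31.6, 61.1 and 116 CPM in day 7 neurons at 21% O2, against 1.98, 0.846, 0.302 and 0.126 CPM in whole worms (6.54 ± 0.79, adjusted p = 0.00016). In day 7 neurons at 7% O2 it measured 30.2, 23.5, 24.5 and 42.1 CPM, against 1.9, 1.08, 0.946 and 0.258 CPM in whole worms (4.80 ± 0.62, adjusted p = 0.000113). At day 1 it measured 23.9, 76.7, 117 and 132 CPM in neurons at 21% O2 and 74.1, 168, 144 and 107 CPM at 7% O2, while whole worms lay at 0.357 to 5.23 CPM. The log2 fold changes at day 1 were 5.06 ± 0.85, adjusted p = 0.000538 at 21% O2 and 6.10 ± 0.51, adjusted p = 1.10e-05 at 7% O2, and the neuron libraries lay above all whole-worm libraries in each of the 4 comparisons.

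Also ceh-57 (chromosome II, 10363584 to 10367296, minus strand) was barely counted in whole worms, at 0 to 0.395 CPM at day 1 and 0 to 2.74 CPM at day 7. In neurons it measured 18.9, 22.5, 108 and 67.4 CPM at day 1 and 21% O2 and 9.75, 47.4, 92.3 and 78.7 CPM at day 1 and 7% O2, and 10.4 to 26.3 CPM at day 7. Its log2 fold changes over whole worms, 8.66 ± 0.96, adjusted p = 2.23e-05 and 9.19 ± 1.04, adjusted p = 7.14e-05 at day 1, were the largest positive ones of any member tested in both comparisons, and at day 7 they were 4.15 ± 0.96, adjusted p = 0.00781 at 21% O2 and 3.77 ± 0.86, adjusted p = 0.00501 at 7% O2. Within each day 1 neuron group its level varied several-fold between libraries.

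**Figure D2:**
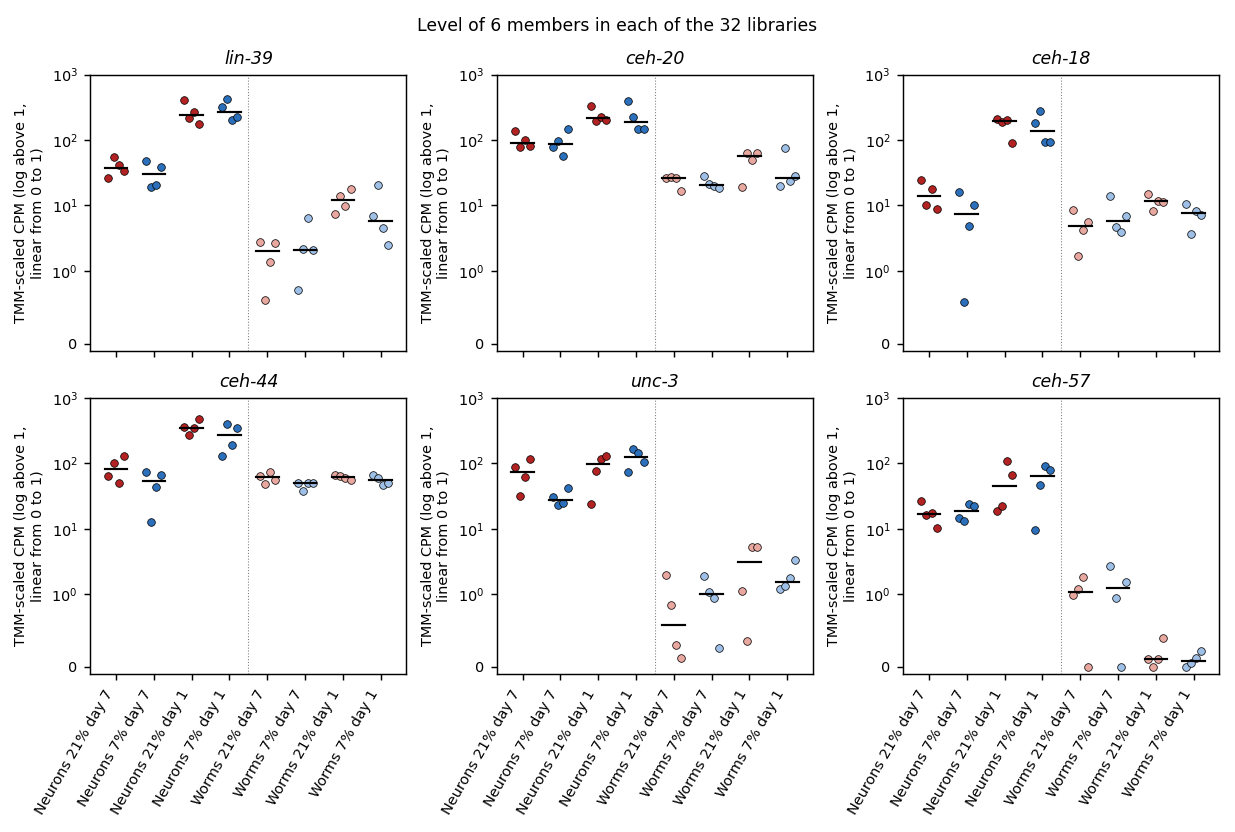
Level of lin-39, ceh-20, ceh-18, ceh-44, unc-3 and ceh-57 in each of the 32 libraries (TMM-scaled CPM; log axis above 1, linear from 0 to 1; bars are medians of 4 libraries). All 6 are highest in day 1 neurons, and unc-3 and ceh-57 are at or below 5.23 CPM in every whole-worm library.

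The POU gene ceh-18, known from gonad sheath cells where it restrains oocyte maturation, was high in day 1 neurons. It measured 209.8, 189.5, 199 and 89.4 CPM in day 1 neurons at 21% O2, against 14.9, 8.27, 11.9 and 11.2 CPM in whole worms (4.02 ± 0.33, adjusted p = 2.37e-06). At 7% O2 it measured 179, 280.4, 93.5 and 93.3 CPM in day 1 neurons, against 10.6, 3.6, 8.31 and 7.22 CPM in whole worms (4.52 ± 0.51, adjusted p = 7.36e-05). At day 1 no neuron library came near the whole-worm range, whereas at day 7 the difference was smaller at 21% O2 (1.64 ± 0.67, adjusted p = 0.0817, a call lost when any 1 of 5 libraries was left out) and was 0.08 ± 0.86 at 7% O2. The Pax6 gene vab-3, which patterns the head, measured 86.5, 26.2, 51.6 and 20.8 CPM in day 7 neurons at 7% O2, against 7.58, 16.6, 6.43 and 6.7 CPM in whole worms (2.29 ± 0.54, adjusted p = 0.00573). At day 1 its groups overlapped at both O2 levels although both differences were called (2.14 ± 0.71, adjusted p = 0.0291 at 21% O2, where the value was 1.42 with an adjusted p of 0.12 without neuron replicate 1, and 2.76 ± 0.75, adjusted p = 0.0147 at 7% O2).

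The 7 CUT genes, which encode a cut domain beside the homeodomain, comprise the panneuronal pair ceh-44 and ceh-48, the more broadly expressed ceh-38, ceh-39, ceh-41 and ceh-49, and ceh-21. The gene ceh-48 measured 34.1, 87, 75.2 and 75 CPM in day 1 neurons at 7% O2, against 2.18, 0.591, 1.41 and 1.4 CPM in whole worms (5.70 ± 0.59, adjusted p = 3.95e-05), and 29.3, 34.8, 52.4 and 48.5 CPM at 21% O2, against 1.001, 3.51, 0.424 and 3.46 CPM (4.43 ± 0.66, adjusted p = 0.000229). At day 7 it was still called higher in neurons (2.69 ± 1.10, adjusted p = 0.0858 at 21% O2, with overlapping groups, and 2.39 ± 0.88, adjusted p = 0.0485 at 7% O2), but each of these calls was lost when any 1 of 5 libraries was left out, and with the replicate number as a block (adjusted p = 0.103 and 0.174). The other panneuronal gene, ceh-44, measured 355, 272, 345 and 473 CPM in day 1 neurons at 21% O2, against 66.2, 64.8, 59.4 and 56.4 CPM in whole worms (2.70 ± 0.23, adjusted p = 3.18e-06; 2.33 ± 0.37, adjusted p = 0.000736 at 7% O2). At day 7 its fold changes were 0.53 ± 0.33 and 0.03 ± 0.44 at 21% and 7% O2, and neither was called.

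The broadly expressed CUT gene ceh-38 was the member called in both directions. In day 1 animals at 21% O2 it measured 161, 127, 192 and 137 CPM in neurons, against 86.7, 85.2, 87.8 and 90.3 CPM in whole worms (0.95 ± 0.20, adjusted p = 0.00236). In day 7 animals it measured 72, 66.5, 59 and 32.6 CPM in neurons at 21% O2, against 109, 97.6, 105 and 111 CPM in whole worms (-0.85 ± 0.29, adjusted p = 0.0418; -0.95 ± 0.33, adjusted p = 0.0406 at 7% O2). These day 7 calls are near the threshold, and each was lost without 1 whole-worm library (replicate 1 at 21% O2 and replicate 4 at 7% O2). In day 7 animals ceh-39, a numerator element of the X chromosome count in sex determination, was lower in neurons at 21% O2 (-1.46 ± 0.56, adjusted p = 0.069, and 0.126 with the replicate block, where the call was lost), and ceh-49 was lower at 7% O2, at 0.109, 0.488, 0.28 and 0.343 CPM in neurons, against 7.05, 4.32, 7.38 and 11.9 CPM in whole worms (-4.58 ± 0.87, adjusted p = 0.00154). The level of ceh-41 was 0 to 6.07 CPM in neurons and 0.702 to 6.65 CPM in whole worms, and it was called in no comparison of the sample types. Nor was ceh-21, at 0.106 to 21.3 CPM in neurons and 4.74 to 10.1 CPM in whole worms, although its day 7 neuron libraries at 21% O2 all lay below whole worms (-2.32 ± 1.11, adjusted p = 0.136).

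Of the 6 LIM homeodomain genes, which often specify single neuron classes, ttx-3, lin-11 and ceh-14 were called higher in day 1 neurons. The AIY interneuron selector ttx-3 measured 6.18, 1.42, 32.2 and 72.3 CPM in day 1 neurons at 21% O2, against 0, 0.536, 0 and 0.691 CPM in whole worms (6.67 ± 1.45, adjusted p = 0.00308). Among the comparisons of neurons with whole worms it was tested only in this one. For lin-11, which acts in the vulva and in several interneurons, day 1 neurons at 21% O2 had 13.3, 20.2, 14.4 and 35.8 CPM, against 5.73, 2.44, 9.87 and 5.04 CPM in whole worms (2.03 ± 0.57, adjusted p = 0.0131), and it was not called at 7% O2 (0.83 ± 0.70). The LIM gene ceh-14, which acts in AFD, had 16.8, 15.8, 18.5 and 45.5 CPM in day 1 neurons at 7% O2, against 2.29, 8.27, 4.57 and 4.1 CPM in whole worms (2.42 ± 0.65, adjusted p = 0.0131), and overlapping groups at 21% O2 (1.44 ± 0.59, adjusted p = 0.0675). The gonad sheath gene lim-7, lim-4, which specifies AWB, and lim-6, which acts in GABAergic neurons, were not called in any of the 4 comparisons where tested, and the highest level of lim-4 or lim-6 in any neuron library was 4.81 CPM.

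Among the other Hox genes, mab-5, which acts in the QL neuroblast lineage that gives rise to PQR, was higher in day 1 neurons. It measured 13.3, 23.4, 14.6 and 14.5 CPM in day 1 neurons at 21% O2, against 0.111, 2.98, 0.743 and 1.48 CPM in whole worms (3.77 ± 0.84, adjusted p = 0.00362), and 4.75 to 64.8 CPM in neurons at 7% O2 (4.41 ± 1.04, adjusted p = 0.00679). At day 7 the fold changes were 2.40 ± 1.23 and 0.45 ± 1.16 at 21% and 7% O2, and neither was called. The labial-type gene ceh-13 was called higher only in day 7 neurons at 21% O2 (2.36 ± 0.87, adjusted p = 0.0584, with overlapping groups), a call that was lost without any 1 of whole-worm replicates 1, 2 and 3. On chromosome III ceh-13 lies between lin-39 and mab-5 in the order of the cluster, from 7555660 to 7558041, with mab-5 from 7776835 to 7783454 and the posterior gene egl-5 from 7814374 to 7817141. The posterior genes egl-5, nob-1 and php-3 were called in none of the 4 comparisons, with 0 to 7.65, 0 to 20.01 and 0 to 17 CPM over the neuron libraries.

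Other members were higher in day 1 neurons without overlap of the groups at 1 or both O2 levels. At both O2 levels these were ceh-88 (3.68 ± 0.61, adjusted p = 0.000492 at 21% and 4.40 ± 0.86, adjusted p = 0.00249 at 7% O2) and ceh-62 (3.66 ± 0.91, adjusted p = 0.0069 and 3.23 ± 0.93, adjusted p = 0.0184). At 21% O2 these were ceh-89 (4.59 ± 0.80, adjusted p = 0.000677) and the Distal-less gene ceh-43 (2.43 ± 0.76, adjusted p = 0.022), and at 7% O2 the ventral cord motor neuron gene unc-4 (3.83 ± 1.25, adjusted p = 0.0339), whose neuron libraries reached only 6.04, 2.15, 2.08 and 1.56 CPM. In day 1 animals at 21% O2, 15 members lay wholly above and 6 wholly below whole worms, 21 of 51, while 50.7% of all genes tested did not overlap. At 7% O2 this held for 12 above and 3 below (all genes, 48.5%). In day 7 neurons at 7% O2, ceh-75 was higher, at 9.24, 1.29, 2.17 and 3.55 CPM in neurons, against 0.421, 0.135, 0 and 0 CPM in whole worms (4.62 ± 1.29, adjusted p = 0.0143). In day 7 animals 5 members lay wholly above and 5 wholly below at 21% O2 (all genes, 39.1%), and 7 above and 7 below at 7% O2 (45%).

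The members lower in neurons included genes with known roles in other tissues. The PBX-type gene ceh-60, which acts in the intestine in yolk production, had no count in any day 1 neuron library at 21% O2, against 4.34, 0.952, 0.955 and 1.38 CPM in whole worms, at least 44.9-fold lower when the neuron group is set to 3 counts (adjusted p = 0.00363). Whole-worm replicate 1 held 78 of the 117 counts, and without it the bound was 22.4-fold. The AFD gene ttx-1 had none in day 1 neurons at 7% O2, against 3.7, 1.18, 3.4 and 1.08 CPM in whole worms, at least 31.8-fold lower on the same floor (adjusted p = 0.00381), while at 21% O2 it reached 0 to 4.34 CPM in day 1 neurons and was not called. The gene ceh-92 was lower in 3 comparisons, with 0.182, 0.864, 0.42 and 0.109 CPM in day 1 neurons at 21% O2, against 29.1, 14.9, 12.5 and 15.4 CPM in whole worms (-5.31 ± 0.78, adjusted p = 0.00021), and -3.01 ± 0.76, adjusted p = 0.0123 and -3.01 ± 0.60, adjusted p = 0.00224 at day 7. At day 1 ceh-83 and ceh-99 were lower at both O2 levels (-4.91 ± 1.09 and -4.58 ± 1.34 for ceh-83, -5.30 ± 1.39 and -4.29 ± 1.26 for ceh-99 at 21% and 7% O2), and the second PBX-type gene ceh-40 was lower at 21% O2 (-5.42 ± 1.45, adjusted p = 0.0102). At day 7 ceh-100 was lower at both O2 levels (-0.92 ± 0.32, adjusted p = 0.0488 at 21% and -0.99 ± 0.39, adjusted p = 0.0646 at 7% O2) and ceh-91 at 7% O2 (-2.82 ± 0.55, adjusted p = 0.00194). In these comparisons all 11 germline markers were lower in neurons, and of 8 intestinal markers 5 and 6 of those tested were lower at day 1 (21% and 7% O2) and 3 at day 7. What part cell composition has in these differences was not tested.

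**Figure D3:**
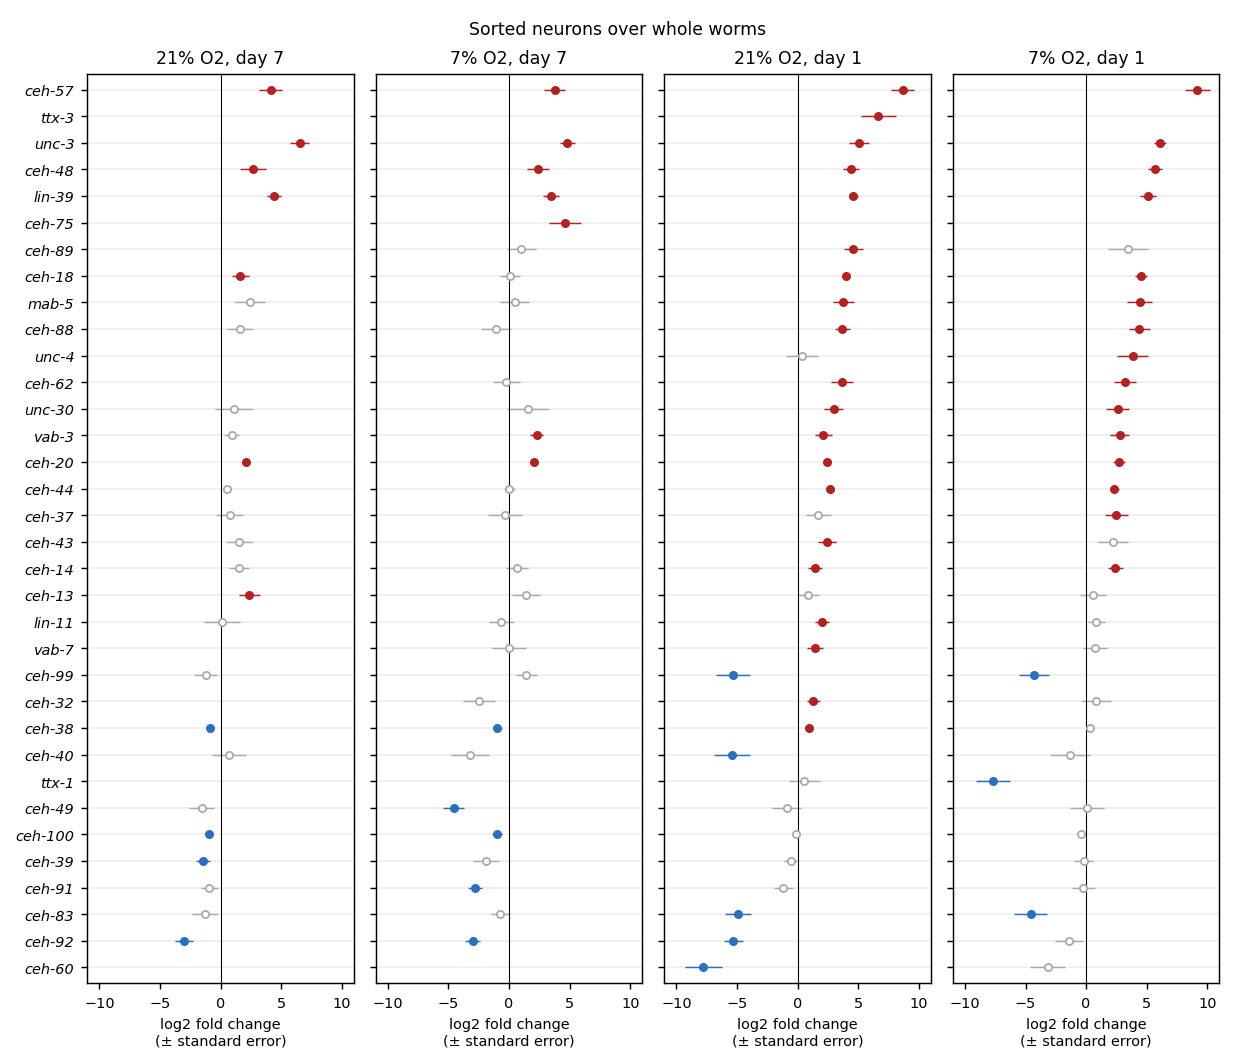
Log2 fold change of sorted neurons over whole worms with its standard error for the 34 members called in at least 1 of the 4 comparisons. Filled red and blue points were called higher and lower, open points were tested and not called, and an empty row was not tested; fold changes of groups with no count (ceh-60 at 21% O2 and ttx-1 at 7% O2, day 1) are fitted values and no bounds.

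The markers of ASI, the chemosensory neuron that the label marks weakly, varied between replicates, and their levels are given here beside those of unc-3, ceh-57 and ttx-3. The summed level of 4 ASI markers was 757, 1574, 3726 and 4006 CPM in replicates 1 to 4 of day 1 neurons at 21% O2 and 391.7, 3941, 3677 and 5179.7 CPM at 7% O2. In both groups replicate 1 was the lowest, and it was also the lowest of its group for unc-3 (23.9 and 74.1 CPM) and ceh-57 (18.9 and 9.75 CPM). At 7% O2 replicate 1 was the lowest for the 8 O2-sensing neuron markers too (2763 CPM, with 6195 to 7857 CPM in the other 3), so it was not low for ASI markers alone. Replicate 2 was the lowest for those markers at 21% O2 (6233 CPM). For ttx-3 the lowest library was replicate 2 at 21% O2 (1.42 CPM) and replicate 1 at 7% O2 (0 CPM). In day 7 neurons the ASI sum was 631, 335, 474 and 331 CPM at 21% O2 and 166, 248, 158 and 204 CPM at 7% O2, against 4.27 to 16.3 CPM in day 7 whole worms. In day 7 neurons at 21% O2 unc-3 was highest (116 CPM) in replicate 4, with an ASI sum of 331 CPM, and lowest in replicate 2, with 335 CPM. At 7% O2 unc-3 was lowest (23.5 CPM) in replicate 2, which had the highest ASI sum. The part of ASI cells in the levels of unc-3, ceh-57 and ttx-3 was not tested.

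**Figure D4:**
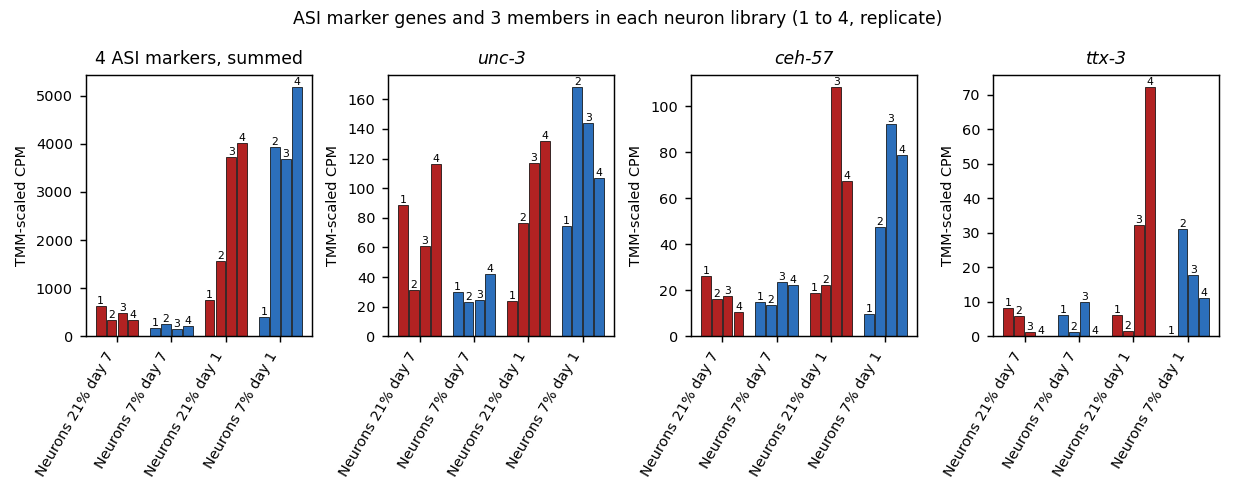
Summed TMM-scaled CPM of 4 ASI marker genes and the level of unc-3, ceh-57 and ttx-3 in each of the 16 neuron libraries, with the replicate number above each bar. In day 1 neurons replicate 1 has the lowest ASI sum of its group (757 and 391.7 CPM) and the lowest unc-3 and ceh-57. In day 7 neurons at 21% O2 replicates 4 and 2 have ASI sums of 331 and 335 CPM, with the highest and the lowest unc-3.

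The second question was whether O2 level in culture changed the homeobox genes. No member was called between 21% and 7% O2 in day 7 neurons, day 1 neurons, day 7 whole worms or day 1 whole worms by edgeR over the 16 libraries of a sample type, with 49 members tested in neurons and 51 in whole worms. Few genes of any kind were called between O2 levels by this test. With DESeq2 at the same thresholds the authors reported many more genes between O2 levels, in neurons and whole worms, so the shares below describe this test. In neurons this was 0.154% of all genes tested for day 7 animals and 0.0939% for day 1 animals, and in whole worms 0.0551% and 0.00918%. The unadjusted p was under 0.05 for 4 members in day 7 neurons and 2 in day 1 neurons, beside 826 and 831 of the 11720 genes tested. In whole worms it was under 0.05 for 4 members at day 7 and 2 at day 1, beside 633 and 1307 of the 10894 genes tested. In day 1 neurons DESeq2 called 2 members, and an edgeR model over all 32 libraries called 1. The shares of all genes called by these 2 models are not given here, so their counts have no background beside them. Of the members with an unadjusted p under 0.05 in neurons, unc-3 had the highest level. In day 7 neurons unc-3 measured 88.8, 31.6, 61.1 and 116 CPM at 21% O2 and 30.2, 23.5, 24.5 and 42.1 CPM at 7% O2 (1.31 ± 0.49, adjusted p = 0.59), and the groups overlapped. In day 1 neurons lin-11 was the member whose groups did not overlap, at 13.3, 20.2, 14.4 and 35.8 CPM at 21% O2 and 7.43, 8.92, 4.31 and 9.16 CPM at 7% O2 (1.48 ± 1.33, adjusted p = 0.992), while 4.36% of all genes tested did not overlap there. At the spread given above and with 4 libraries per group, a difference that was not called is not shown to be absent.

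The third question was how the homeobox genes differed with age. In neurons at 21% O2, 2 of 49 members tested were higher and 12 were lower at day 7 than at day 1, beside 12.1% of all genes called higher and 18% called lower. At 7% O2, 4 were higher and 12 lower, beside 15.4% and 21% of all genes. At both O2 levels 9 members were lower, 3 were lower at 21% O2 only and 3 at 7% O2 only, where "only" describes calls and not a tested difference. The median log2 fold change of tested members was -1.16 at 21% O2 and -1.23 at 7% O2, beside -0.20 and -0.28 over all genes, and RLE scaling moved the all-gene median by 0.29 and 0.22. Over the same libraries the 12 general neuronal markers had a median log2 fold change of -2.91 at 21% O2 and -3.13 at 7% O2, with 10 and 11 of them called lower, and all 8 O2-sensing neuron markers and all 8 touch neuron markers were lower at both levels. Of the 10 epidermal markers 3 were higher and 1 lower of 4 tested at both O2 levels, and the summed level was 464 to 820.5 CPM in day 7 neurons and 38 to 153 CPM in day 1 neurons. Of 6 intestinal markers tested, 2 were higher and 1 lower at 21% O2, and 3 were higher and 0 lower at 7% O2. The sum of the 8 intestinal markers was 4521 to 10972 CPM in day 7 neurons and 510 to 3466 CPM in day 1 neurons. Of 8 body wall muscle markers, 5 and 4 were lower at 21% and 7% O2 and 0 higher. Fewer labelled neurons among the sorted cells and less RNA per neuron cannot be told apart here, and the part of cell composition in the member values was not tested.

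Of the members abundant in day 1 neurons, lin-39, ceh-18, ceh-20 and ceh-44 were lower at day 7 at both O2 levels, whereas ceh-100 was called at neither. The day 1 libraries in which these members are abundant are also the reference for this change. The Hox gene lin-39 fell to 26.1, 54.4, 42.1 and 33.6 CPM in day 7 neurons at 21% O2, against 415, 217, 270.4 and 173 CPM in day 1 neurons (-2.77 ± 0.41, adjusted p = 5.05e-05). At 7% O2 lin-39 measured 48.4, 18.8, 20.8 and 38.8 CPM in day 7 neurons, against 315, 423, 199 and 222 CPM in day 1 neurons (-3.19 ± 0.41, adjusted p = 8.70e-06). Even the highest day 7 library was thus well under the lowest day 1 library. The POU gene ceh-18 measured 24.3, 10.2, 17.8 and 8.79 CPM in day 7 neurons at 21% O2, against 209.8, 189.5, 199 and 89.4 CPM in day 1 neurons (-3.47 ± 0.69, adjusted p = 0.000914), and 16.3, 0.576, 4.9 and 10.1 CPM at 7% O2, against 179, 280.4, 93.5 and 93.3 CPM (-4.35 ± 0.72, adjusted p = 0.000116). The Hox cofactor gene ceh-20 fell to 56.5 to 147 CPM in day 7 neurons, against 149 to 388 CPM in day 1 neurons (-1.24 ± 0.37, adjusted p = 0.0212 at 21% O2 and -1.26 ± 0.37, adjusted p = 0.0157 at 7% O2). At 21% O2 the call for ceh-20 was lost without day 7 neuron replicate 4, with a value of -0.91 and an adjusted p of 0.118.

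Of the 7 CUT genes, the panneuronal ceh-44 and ceh-48 and the broad ceh-38 were lower at day 7. Of these, ceh-44 measured 64.6, 102, 50.4 and 131 CPM in day 7 neurons at 21% O2, against 355, 272, 345 and 473 CPM in day 1 neurons (-2.04 ± 0.47, adjusted p = 0.00345; -2.45 ± 0.48, adjusted p = 0.000599 at 7% O2). The other panneuronal gene, ceh-48, measured 13.4, 4.21, 3.57 and 1.83 CPM in day 7 neurons at 7% O2, against 34.1, 87, 75.2 and 75 CPM in day 1 neurons (-3.56 ± 0.73, adjusted p = 0.000935; -2.41 ± 0.69, adjusted p = 0.0156 at 21% O2). For both genes no day 7 library reached the day 1 range. For ceh-38 the values were smaller (-1.40 ± 0.42, adjusted p = 0.0201 at 21% O2, lost without day 7 neuron replicate 4 at an adjusted p of 0.122, and -0.97 ± 0.42, adjusted p = 0.0858 at 7% O2, with overlapping groups), and ceh-21 (-2.36 and -1.51 at 21% and 7% O2), ceh-39, ceh-41 and ceh-49 were not called.

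Among Hox and LIM genes, mab-5 was lower at day 7 at both O2 levels (-2.41 ± 1.02, adjusted p = 0.0942 at 21% O2 and -4.11 ± 1.10, adjusted p = 0.00816 at 7% O2), as was ceh-14 (-2.18 ± 0.80, adjusted p = 0.0532 and -2.83 ± 0.82, adjusted p = 0.0134). The 21% O2 calls of both are near the threshold and were lost when any 1 of 9 libraries (mab-5) or any 1 of 4 libraries (ceh-14) was left out. The posterior Hox gene nob-1 was lower at 21% O2, with 0.528, 0, 0.545 and 0 CPM in day 7 neurons, against 4.45, 4.44, 20.01 and 7.27 CPM in day 1 neurons (-4.99 ± 1.67, adjusted p = 0.0351), and lim-7 was lower at 7% O2 (-4.16 ± 1.42, adjusted p = 0.0328). No tested gene of these 2 families was higher in day 7 neurons. At 21% O2 the Six-type gene ceh-32 had 3 counts in all 4 day 7 neuron libraries and 1440 counts in the 4 day 1 libraries. This was a 294-fold lower level per scaled library size (95% counting interval 100.2 to 1425, adjusted p = 0.00746). Counting intervals here and below treat the pooled counts of a group as 1 sample, so they cover counting error and leave out the spread between libraries. At 21% O2 the Even-skipped gene vab-7 was also lower (-4.66 ± 1.64, adjusted p = 0.0452), a call lost without day 1 neuron replicate 3 at an adjusted p of 0.103. At 7% O2 ceh-88 was lower (-5.56 ± 1.36, adjusted p = 0.00427).

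For unc-3 the 2 O2 levels gave different values. At 7% O2 it was lower at day 7, at 30.2, 23.5, 24.5 and 42.1 CPM in day 7 neurons, against 74.1, 168, 144 and 107 CPM in day 1 neurons (-2.03 ± 0.50, adjusted p = 0.00479). At 21% O2 the same comparison gave -0.21 ± 0.49, adjusted p = 0.806, with overlapping groups. The test of the difference between these 2 changes, the age by O2 interaction, gave 1.82 ± 0.69, adjusted p = 0.585 (unadjusted p = 0.0158), so that the change was not shown to differ between O2 levels. No member was called in that interaction among 49 tested by edgeR over the 16 neuron libraries, where 0.0597% of all genes were called. The unadjusted p was under 0.05 for 3 members, beside 872 of the 11720 genes tested. DESeq2 called 1, as did an edgeR model over all 32 libraries, and the shares of all genes called by these models are not given here.

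The members higher in day 7 neurons were few and low. The engrailed gene ceh-16, which acts in epidermal seam cells, had no count in day 1 neurons at 21% O2 and 22.4, 0.237, 1.32 and 0.953 CPM in day 7 neurons, at least 108-fold higher when the day 1 group is set to 3 counts (adjusted p = 0.0161), and replicate 1 held 170 of the 198 counts, without which the bound was 19-fold. At 7% O2 it had 59 counts in day 7 neurons and 1 count in day 1 neurons, a ratio of 48.6 with a 95% counting interval of 8.38 to 1950.3 (adjusted p = 0.0771, with overlapping groups), and a ratio of 12.7 without day 7 replicate 4. Likewise ceh-75 had no count in day 1 neurons at 7% O2 and 9.24, 1.29, 2.17 and 3.55 CPM in day 7 neurons, at least 48.3-fold higher on the same floor (adjusted p = 0.0118), and at least 30.01-fold without replicate 1, which held 85 of the 176 counts. At 7% O2 ceh-99 was also higher (5.50 ± 1.95, adjusted p = 0.0385), and ceh-83 was higher at both O2 levels (4.52 ± 1.82, adjusted p = 0.0798 at 21% O2, with overlapping groups, and 4.33 ± 1.81, adjusted p = 0.0783 at 7% O2). The epidermal and intestinal sums given above were higher in day 7 neurons too, and the part of other cells in these members' levels was not tested. In neurons at 21% O2, 2 members lay wholly above and 12 wholly below their day 1 level (all genes not overlapping, 31%), and at 7% O2 3 and 11 did (29.7%).

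The same comparison was made in whole worms. At 21% O2, 3 of 51 tested members were higher and 10 lower at day 7 (all genes, 7.92% and 10.7%), and at 7% O2, 4 were higher and 1 lower (7.49% and 8.36%). At 21% O2 the lower members whose groups did not overlap were ceh-86 (-2.90 ± 0.50, adjusted p = 0.000351), ceh-14 (-2.34 ± 0.58, adjusted p = 0.00813), lin-39 (-2.68 ± 0.66, adjusted p = 0.00852), nob-1 (-2.30 ± 0.57, adjusted p = 0.00855) and vab-7 (-3.25 ± 0.89, adjusted p = 0.0166). Of these, lin-39 measured 2.81, 0.604, 1.36 and 2.64 CPM in day 7 whole worms at 21% O2, against 7.29, 14.1, 9.76 and 18 CPM in day 1 whole worms, and at 7% O2 0.737, 2.16, 6.43 and 2.06 CPM, against 6.86, 20.6, 4.57 and 2.48 CPM (-1.63 ± 0.64, not called). The gene ceh-91 was higher at both O2 levels, at 24.9, 20.8, 24.5 and 24.8 CPM in day 7 worms at 21% O2, against 14.9, 13.7, 4.88 and 7.11 CPM in day 1 worms (1.26 ± 0.29, adjusted p = 0.00427; 0.89 ± 0.28, adjusted p = 0.0405 at 7% O2). The head-patterning gene vab-3 was also higher at both (1.14 ± 0.45, adjusted p = 0.0909 at 21% O2, with overlapping groups, and 1.55 ± 0.47, adjusted p = 0.0304 at 7% O2, which without day 7 replicate 2 was 1.10 with an adjusted p of 0.161). Body wall muscle markers were all lower at day 7 in whole worms (8 of 8 at both O2 levels), and the epidermal sum was 26.3 to 61.3 CPM in day 7 worms and 114 to 344 CPM in day 1 worms.

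These whole-worm counts rest on few libraries. At 21% O2 the count of called members, 13 with all libraries, was 7 without day 1 replicate 3 or 4 or day 7 replicate 4, and 8 without day 7 replicate 3. At 7% O2 the count, 5 with all libraries, was 3 without day 1 replicate 2, 2 without day 7 replicate 1 and 1 without day 7 replicate 2. In whole worms at 21% O2, 2 members lay wholly above and 5 wholly below their day 1 level (all genes not overlapping, 17.1%), and at 7% O2 2 and 0 did (20.3%).

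**Figure D5:**
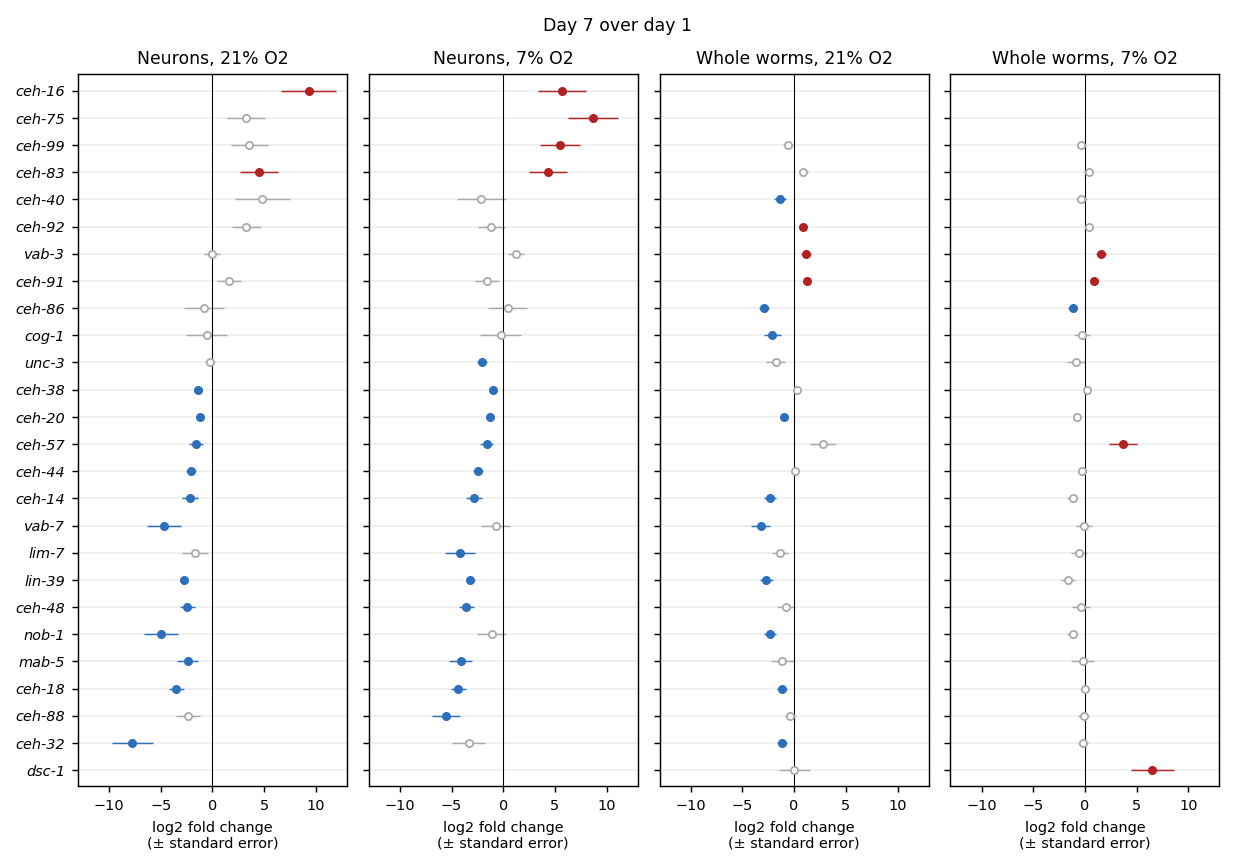
Log2 fold change of day 7 over day 1 with its standard error in sorted neurons and whole worms for the 26 members called in at least 1 of the 4 comparisons. Filled red and blue points were called higher and lower, open points were tested and not called, and an empty row was not tested; fold changes of groups with no count are fitted values and no bounds. lin-39 was lower in neurons at both O2 levels (-2.77 and -3.19) and in whole worms at 21% O2 (-2.68).

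Whether the age change in neurons differed from that in whole worms was tested as an interaction over all 32 libraries. At 21% O2 this difference was called for 11 of 62 tested members, 5 positive and 6 negative, beside 10.6% and 10.9% of all genes, and at 7% O2 for 14, 4 positive and 10 negative, beside 13.9% and 15.7%. The day 7 to day 1 ratio of ceh-44 was lower in neurons than in whole worms at both O2 levels (log2 difference -2.04 ± 0.51, adjusted p = 0.00543 at 21% O2 and -2.19 ± 0.51, adjusted p = 0.00211 at 7% O2), and so was that of ceh-18 (-2.27 ± 0.83, adjusted p = 0.0605 and -4.36 ± 0.86, adjusted p = 0.000311). The values of ceh-38 (-1.69 ± 0.43, adjusted p = 0.00654 and -1.15 ± 0.43, adjusted p = 0.0525) and ceh-57 (-4.35 ± 1.27, adjusted p = 0.0165 and -5.31 ± 1.32, adjusted p = 0.00362) were also negative at both levels, and those of ceh-83 and ceh-99 were positive at both. For ceh-57 the whole-worm libraries held only 0 to 4 counts at day 1 and 0 to 26 counts at day 7. Its values thus join higher whole-worm counts near the floor with the change in neurons, and are not the size of a loss in neurons. With the replicate number as a block within each age and O2 level, an alternative chosen after seeing the data, the interaction was called for 5 and 8 members at 21% and 7% O2. Those of ceh-18, ceh-38, ceh-44 and ceh-57 were called at both O2 levels there too, whereas those of ceh-83 and ceh-99 were lost at 21% O2 (adjusted p = 0.341 and 0.117). For lin-39, by contrast, the difference was -0.05 ± 0.88, adjusted p = 1.00 at 21% O2 and -1.54 ± 0.76, adjusted p = 0.146 at 7% O2, so its change in neurons was not shown to differ from that in whole worms, and for ceh-20 it was -0.22 ± 0.55, adjusted p = 0.85 and -0.51 ± 0.55, adjusted p = 0.557.

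A list of 20 further homeobox genes outside the rule, among them the touch neuron gene mec-3 and the POU gene unc-86 and fixed for comparison, was counted in the same tests. In day 1 animals 7 of 14 tested were higher in neurons and 3 lower at 21% O2 (all genes, 30% and 22.8%), and 6 of 13 higher and 1 lower at 7% O2 (26.8% and 19.5%). In day 7 animals 4 of 12 were higher and 1 lower at 21% O2 (23.5% and 16.8%), and 5 of 13 higher and 2 lower at 7% O2 (24.7% and 21.1%). Between day 7 and day 1 neurons 7 of 13 were lower and none higher at both O2 levels (all genes lower, 18% at 21% and 21% at 7% O2), and in whole worms 3 of 15 were lower at 21% O2 (10.7%) and 1 at 7% O2 (8.36%). None was called between O2 levels in any of the 4 comparisons by edgeR. For unc-86 the log2 fold change of 21% over 7% O2 was 1.72 ± 0.52 in day 1 neurons (unadjusted p = 0.00337, adjusted p = 0.42). It was 1.21 ± 0.52 in day 7 neurons (adjusted p = 0.653). The authors picked unc-86 from the top-ranked genes of their own test between O2 levels in day 1 neurons.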

How the data were processed

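RNA was extracted from sorted O2-sensing neurons and from whole worms, and 32 libraries in 8 groups of 4 were analysed. Per the labels these are biological replicates. The authors trimmed reads with Cutadapt 1.9, aligned them with STAR 2.5.2b to WBcel235 at a minimum alignment quality of 10, removed ribosomal RNA and deposited raw counts of fragments per gene from featureCounts 1.5.1, counted over exons without regard to strand. The annotation release is not given in the sources used here. Totals ran between 5365596 and 30666288 counts per library, so low members are limited by counting error. A total of 0 pairs of libraries were identical.

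Here the counts were analysed in R 4.3.3 with edgeR 4.0.16, using filterByExpr (minimum count 10), TMM scaling and the robust quasi-likelihood test. Adjusted p denotes the Benjamini-Hochberg adjustment over all genes tested, and calls required a fold change of 1.5 or more with an adjusted p under 0.1. Neurons and whole worms were compared over the 8 libraries of a group pair, O2 levels and ages over all 16 neuron or whole-worm libraries, and interactions of sample type and age over all 32. The procedure was also run on counts simulated from the fitted levels and spread, and the outcome is not given here. Alternatives were DESeq2 1.42.0, RLE scaling, no count filter, an adjusted p under 0.05, other sets of libraries in the fit, omission of single libraries, and a block for the replicate number. A block within each age and O2 level was chosen after seeing the data.

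Members were taken by name. Those described singly were called in at least 3 of 4 neuron comparisons, or were among up to 10 per direction of each comparison with the smallest p and no overlap of the groups, or were CUT, LIM or Hox genes or unc-3 whatever their values, and others serve as examples. The members, lists and tests were chosen with earlier results of these data known.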

Additional observations from a re-analysis of the deposited data

Results flagged for a closer look

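In 8 of the 88 sets of 4 libraries examined for a library far from the other 3 (Dixon's test at the 95% level, where chance alone gives about 1 in 20), such a library was found. For the summed level of all members it was the lowest day 7 neuron library at 21% O2, at 548 CPM, and the highest day 1 whole-worm library at 7% O2, at 599.6 CPM. For single members it was the lowest day 1 neuron library at 21% O2 for ceh-18 (89.4 CPM) and the highest day 1 neuron library at 7% O2 for ceh-14 (45.5 CPM). In whole worms it was the lowest day 7 library at 21% O2 for ceh-20 (16.3 CPM), the highest day 1 library at 7% O2 for ceh-20 (74.8 CPM), and the lowest day 7 library at 7% O2 for ceh-44 (38.1 CPM) and for ceh-48 (0.81 CPM).

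The change with age was called different between neurons and whole worms in edgeR's interaction test for the members that follow, where a negative value means a lower day 7 to day 1 ratio in neurons. At 21% O2 the interaction was negative for ceh-18 (-2.27), ceh-32 (-6.50), ceh-38 (-1.69), ceh-44 (-2.04), ceh-57 (-4.35) and lim-6 (-7.17), and positive for ceh-16 (6.66), ceh-36 (10.67), ceh-40 (6.22), ceh-83 (3.70) and ceh-99 (4.16), all on the log2 scale. At 7% O2 it was negative for ceh-9 (-9.48), ceh-18 (-4.36), ceh-38 (-1.15), ceh-44 (-2.19), ceh-48 (-3.19), ceh-49 (-4.56), ceh-57 (-5.31), ceh-88 (-5.41), lim-7 (-3.56) and mab-5 (-3.86), and positive for ceh-22 (7.50), ceh-83 (3.92), ceh-99 (5.82) and ttx-1 (6.57). For ceh-9, ceh-16, ceh-22, ceh-36, lim-6 and ttx-1 one neuron group had no count at all, so the fitted sizes are no bounds. In day 7 neurons at 7% O2, ceh-22 and ttx-1 had counts in replicate 4 only (9 and 16 counts). In day 7 neurons at 21% O2, ceh-40 had 2, 130, 0 and 14 counts. In day 1 neurons lim-6 had 2, 0, 125 and 0 counts at 21% O2, and ceh-9 had 0, 133, 8 and 0 counts at 7% O2. For ceh-57 the whole-worm counts were near the floor, as given above. With the replicate number as a block within each age and O2 level, the calls of ceh-16, ceh-36, ceh-40, ceh-83, ceh-99 and lim-6 at 21% O2 and of ceh-9, ceh-22, ceh-49, lim-7, mab-5 and ttx-1 at 7% O2 were lost. The CUT genes ceh-38 and ceh-44, with ceh-18, ceh-57, ceh-83 and ceh-99, were called in the same direction at both O2 levels.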

How the results depend on the processing

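All values here are counts of called members, and the shares of all genes called under the alternatives are not given. For neurons against whole worms, all libraries gave 25 and 18 at day 1 (21% and 7% O2) and 11 and 12 at day 7, and leaving out 1 library gave 22 to 26, 17 to 25, 7 to 17 and 10 to 15. For day 7 against day 1 they gave 14 and 16 in neurons (10 to 17 and 13 to 20) and 13 and 5 in whole worms (7 to 12 and 1 to 7), and for the interaction of sample type and age 11 and 14 (9 to 15 and 10 to 18). The O2 comparisons and the interaction of age and O2 in neurons stayed at 0 (0 to 0). An adjusted p under 0.05 gave 7 for day 7 neurons against whole worms at 21% O2, 7 and 3 for age in whole worms, and 5 and 7 for the interaction of sample type and age. DESeq2 gave 29 for day 1 neurons against whole worms at 7% O2, 17 for day 7 neurons against whole worms at 21% O2, 2 for O2 in day 1 neurons and 1 for age by O2. A model of all 32 libraries gave 19 for day 7 neurons against whole worms at 21% O2, 24 for age in neurons at 21% O2, 2 and 1 for age in whole worms, 1 for O2 in day 1 neurons and 1 for age by O2. The 8 libraries of the 2 groups alone gave 8 for age in whole worms at 21% O2. The cause of these differences was not tested. Of 139 called values of members, 79 kept their call in every alternative run, 60 lost it in at least 1, and 0 reversed.

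Whole-worm samples were aliquots of sorted suspensions, but no source used here says that equal replicate numbers share a suspension. Same-numbered deviations correlated at -0.12 to 0.33 over all 12 comparisons, and in no comparison was every pair over 0.1. In the 4 comparisons of neurons with whole worms, where a suspension could be shared, they correlated at -0.05 to 0.15. In 2 of 12 comparisons, day 1 neurons against whole worms at 21% O2 and O2 in day 7 whole worms, all 4 numbers correlated best with their own number. The replicate block gave 24, 20, 10 and 14 for neurons against whole worms, 12, 13, 11 and 4 for age in neurons and whole worms, 8 and 10 for the interaction of sample type and age, and 0 elsewhere. A block within each age and O2 level, chosen after seeing the data, gave 5 and 8 for that interaction. Members with few counts are limited by depth.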
